A study of Danio rerio with 14 samples.

Results

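The comparison set zebrafish larvae raised in treated wastewater at its original strength (1x, 5 arrays) against larvae raised in the same effluent at 0.5x (5 arrays). These 10 arrays were taken, by their labelled strength alone, from the 14 arrays of the series. The remaining 4 arrays were control larvae, which served to place the unexposed level of each gene below, between or above the effluent groups. All larvae were Danio rerio of the AB strain, wild type, and were taken whole at 5 days of age. Exposure ran for 5 days from 3 h after fertilisation, in wells of 25 to 30 embryos in 4 mL at 28 °C, with the medium exchanged every 24 h. The secondary effluent of a wastewater plant was made up in E3, the salt solution in which zebrafish embryos are kept, with at most 0.05% DMSO as a solvent. Control larvae had 0.05% DMSO in E3, so the solvent was common to all groups; whether 0.5x held as much of it as 1x is not stated in the labels. Each replicate was a pool of larvae, and 200 ng of its RNA was labelled with the dye Cy3. Whether the replicates came from different clutches, and at which time of day they were collected, is not stated either, so p-values measure the spread between these samples, which may be technical.

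Treated wastewater carries hormones, drugs and industrial compounds that fish receptors can read. Estrogens act through estrogen receptors on aromatase in the brain and on yolk proteins in the liver, and planar aromatic compounds act through the aryl hydrocarbon receptor on cyp1a, which oxidises them. Cortisol, the stress hormone of fish, acts through the glucocorticoid receptor on genes such as klf9, fkbp5 and per1a, several of which the daily clock also drives, and it promotes glucose output and protein breakdown. In larvae of this age the gut, liver, pancreas and retina have begun to work while the yolk is running out.

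A level below is the log2 processed signal of a gene's probe less the 75th percentile of its array, so it is relative to that array and is never compared between genes. A log2 difference is the mean level at 1x less that at 0.5x, with its standard error, over 5 and 5 arrays. The test was limma, with Benjamini-Hochberg adjustment over 38764 probes, and a gene called higher or lower had an adjusted p under 0.05. Every adjusted p given for a gene is limma's. The arrays lay on 4 slides that were scanned on 2 days. Scan day 1 held 1x replicates 1 to 3, 0.5x replicate 1 and control replicates 1 and 2. Scan day 2 held 1x replicates 4 and 5, 0.5x replicates 2 to 5 and control replicates 3 and 4. On the effluent arrays the median processed signal was 175 to 252 at 1x and 136 to 254 at 0.5x, and 86.7% to 90.9% of probes were well above background. Correlations over all probes were 0.987 to 0.995 within 1x, 0.981 to 0.996 within 0.5x and 0.977 to 0.993 between the strengths. Of 25 defining markers of larval tissues, 21 were measured, each well above background on all 10 effluent arrays; tfa, mbpa, hbbe1.1 and otofb were not matched to a kept probe. Pancreas prss1 and ela2 and gut fabp2 were lower at 1x among these markers, and the other 18 did not pass the test. In RNA of whole larvae, fewer cells of a type and less RNA per cell cannot be told apart.

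The first principal component of the 10 arrays held 47.6% of the variance and the second 15.3%. On the first component, 1x replicates 1 to 3 lay between -54.2 and -41.9, 1x replicate 4 at -14.2 and 1x replicate 5 at 13.0. The 0.5x replicates 2 to 5 lay between 38.0 and 56.7, whereas 0.5x replicate 1, the only 0.5x array of scan day 1, lay at -30.8 and stood apart from all others on the second component at -50.4. Strength and scan day were thus mixed unequally, and results are given within a day or without 0.5x replicate 1 where this moves them.

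**Figure D1:**
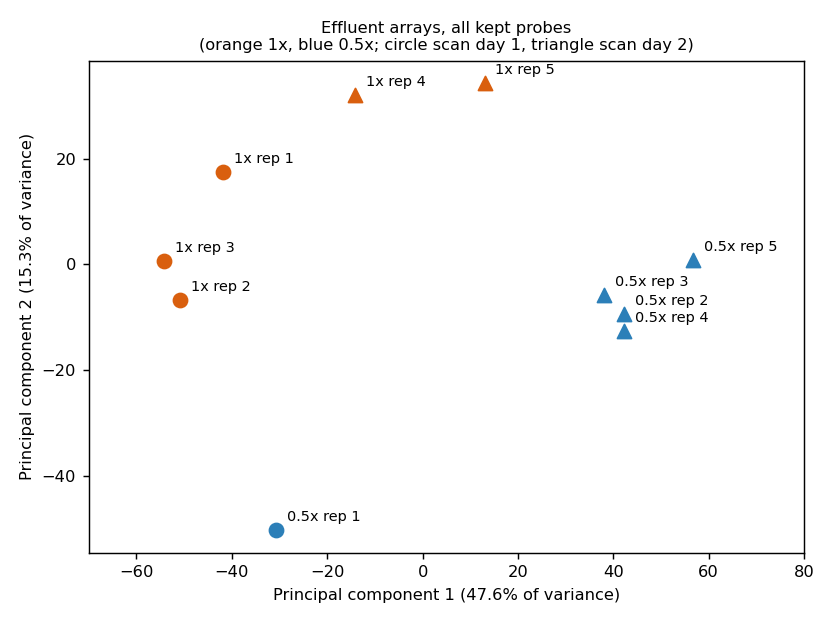
Scores of the 10 effluent arrays on the first component (x axis, 47.6% of variance) and the second (y axis, 15.3%), coloured by strength and marked by scan day. The 0.5x replicate 1 sits at -30.8 and -50.4, away from the 0.5x replicates 2 to 5, which lie between 38.0 and 56.7 on the x axis.

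Of 12780 genes measured, 1167 (9.13%) separated the strengths: 479 (3.75%) were higher at 1x and 688 (5.38%) were lower. Over probes, 3249 of 38764 passed (8.38%), 1528 upwards (3.94%) and 1721 downwards (4.44%), and 47.0% of these calls were upwards. That share was 33.6% with normexp background correction and 35.2% with scaling to the array median. The called changes were mostly small, with a median absolute log2 difference of 0.52 against 0.17 over all genes. At least 2-fold changes numbered 33 upwards and 53 downwards. The arrays of the strengths did not overlap in 356 of the 479 higher genes, against 4.51% of all genes with every 1x array above, and in 532 of the 688 lower genes, against 5.74% with every 1x array below; the call and this separation use the same values.

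The number of calls depended strongly on single arrays. Without 0.5x replicate 1 there were 1400 genes higher and 1810 lower. Leaving out any other array gave 177 to 283 higher and 322 to 454 lower, except for 1x replicate 5 and, for the lower genes, 1x replicate 4, which moved the counts by less than 1.5 times; the smallest counts were without 0.5x replicate 4. Of the 1167 called genes, 1163 had the same sign within scan day 1, where 3 1x arrays met 1 0.5x array, as within scan day 2, where 2 met 4. Within scan day 2 alone, 154 genes were higher and 274 lower. With slide as a block, which compares strengths only inside the 2 slides that held both, all 1167 kept their sign and 248 kept an adjusted p under 0.05. Slide 2 held 1x replicates 2 and 3 and 0.5x replicate 1, and slide 3 held 1x replicates 4 and 5 and 0.5x replicate 2. The difference in this fit thus leaves out 1x replicate 1 and 0.5x replicates 3 to 5, and leans on 0.5x replicate 1, which stood apart. For a call lost in this fit, a slide effect and the smaller set of arrays cannot be told apart. Signs kept within a day or with this block are no independent test, since the same arrays made the call. Over all genes the fit with slide as a block called 129 higher and 162 lower. Some called genes described below lost the call in this fit (adjusted p of 0.0517 to 0.134). They included vtg7, bmal1a, bmal1b, cel.2, bhlha15, fabp2, anxa1c, plk1, ccna2, gins4, acaa2, mvda, cyp2k19, sult1st4, calr3b, tnfb, rela, jac10, tas2r201.1, trmt2b and bach1b. Further ones are given with the other observations at the end.

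**Figure D2:**
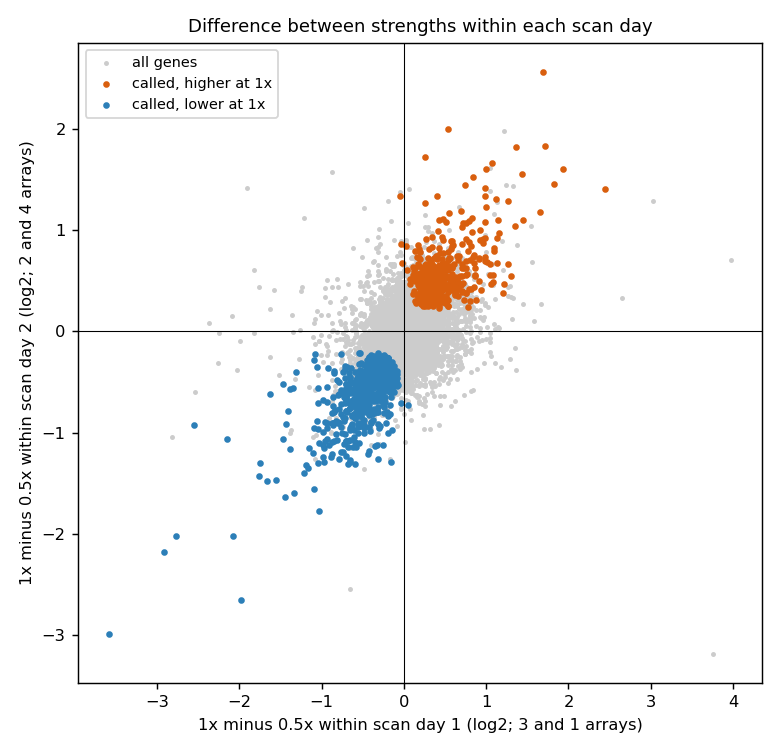
Log2 difference (1x less 0.5x) of each gene within scan day 1 (x axis, 3 and 1 arrays) and within scan day 2 (y axis, 2 and 4 arrays). All genes are grey, with called genes in orange (higher at 1x) or blue (lower at 1x). Nearly all called genes lie in the lower left or upper right, as 1163 of 1167 had the same sign on both days. This is no independent test, since both days entered the call.

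Control larvae lay between the strengths for 258 of the 479 genes higher at 1x, below both for 155 and above both for 66. For the 688 genes lower at 1x, control lay between for 301, above both for 203 and below both for 184. Counted by side, 358 called genes (30.7%) had both strengths on 1 side of control with 1x farther out, 250 (21.4%) had both on 1 side with 0.5x farther out, and 559 (47.9%) had the strengths on opposite sides. Over all 12780 genes these shares were 46.8%, 30.1% and 23.1%; a called gene has a wider gap for the control mean to fall into, so the larger share between is a description. Control replicates 1 and 2 differed from 3 and 4 in many genes, and with replicates 3 and 4 alone 0.5x was farther out in 109 called genes (9.34%), 1x farther out in 511 (43.8%), and the sides were opposite in 547 (46.9%). The count of genes farther from control at 0.5x thus moved more with the choice of control arrays than the total on opposite sides. Within that total, the higher genes went from 258 to 201 and the lower genes from 301 to 346. With scan day 2 arrays only in every group, 0.5x was farther out in 11.4% of called genes, 1x in 37.0%, and the sides were opposite in 51.6%. Over all genes these day 2 shares were 24.7%, 44.9% and 30.3%. In 53 called genes (4.54%, against 0.563% of all genes) all arrays of control, 0.5x and 1x formed 3 separate ranges. Such ranges need strengths that do not overlap, which the call already favours on the same values, so the larger share is a description. The tests of each strength against control share the 4 control arrays, and in the fit of all 14 arrays they called 3395 genes at 1x (26.6%) and 1106 at 0.5x (8.65%).

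**Figure D3:**
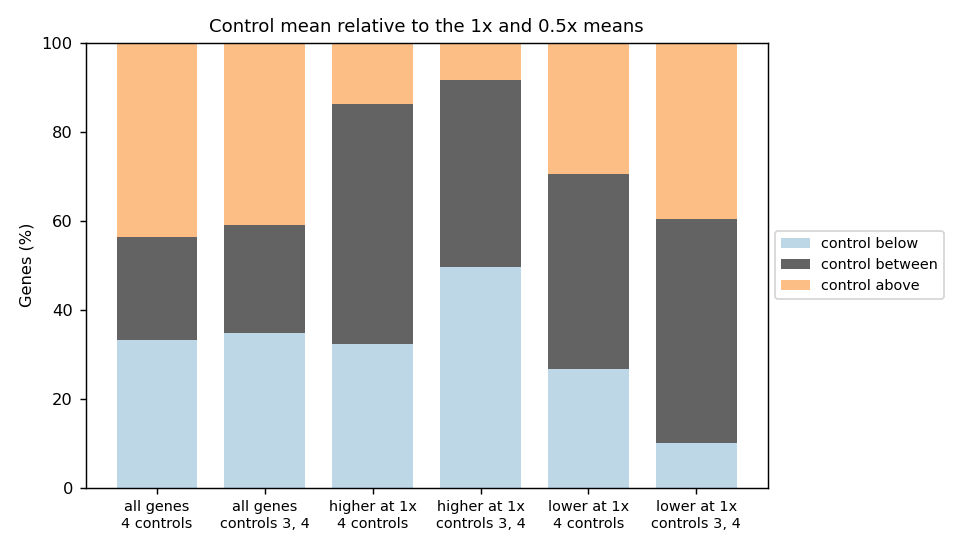
Share of genes (y axis, percent) whose control mean lay below, between or above the means of the strengths, over all genes and for genes higher and lower at 1x, each with all 4 control arrays and with control replicates 3 and 4 only. The middle segment is 258 of 479 and 301 of 688 called genes with all 4 arrays, and the lower genes with control below both go from 184 to 69 with replicates 3 and 4.

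Among estrogen-responsive genes, brain aromatase and a yolk protein were higher at 1x, while their levels at 0.5x overlapped those of control larvae. Of 9 measured genes of this list, 2 (22.2%) were higher at 1x and 1 (11.1%) was lower, against 3.75% and 5.38% of all genes. The median log2 difference was 0.18 against -0.02 over all genes. Brain aromatase, cyp19a1b, which converts androgens to estrogens in radial glia, had log2 levels of -2.71, -2.31, -3.36, -2.12 and -2.09 on the 1x arrays. At 0.5x its levels were -4.48, -4.49, -4.50, -4.91 and -4.73, and in control larvae -4.27, -4.38, -4.75 and -4.57. Every 1x array was above every other array, while 0.5x and control overlapped. The log2 difference was 2.11 ± 0.22 (4.31-fold, adjusted p = 6.55e-04), with 1.69 on scan day 1 alone and 2.56 on scan day 2 alone. Against control the log2 difference was 1.97 at 1x and -0.13 at 0.5x.

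Vitellogenin vtg7, an egg yolk precursor that the liver makes under estrogen, had log2 levels of -2.85, -3.50, -2.95, -4.05 and -3.67 at 1x and of -4.92, -4.61, -5.60, -5.78 and -5.23 at 0.5x. In control larvae its levels ran from -6.13 to -4.32, so control overlapped 0.5x and not 1x. The log2 difference was 1.83 ± 0.27 (3.55-fold, adjusted p = 0.00367; 0.0543 with slide as a block). Vitellogenin genes are near-identical copies of each other, so the value may hold signal of several of them, and vtg1 was not measured here. Estrogen receptor esr2b was lower at 1x, with a log2 difference of -0.94 ± 0.11 (adjusted p = 0.00139). Its levels at 1x ran from -3.69 to -3.35, at 0.5x from -2.85 to -2.32 and in control from -4.17 to -3.48, so the strengths did not overlap. Estrogen receptor esr1 differed by 0.24 (95% interval -0.10 to 0.57, adjusted p = 0.312), so a log2 rise above 0.57 lies outside the interval. The male-pathway transcription factor dmrt1 had log2 levels of -1.89 to -1.24 at 1x and, at 0.5x, of -1.66 and -1.85 in replicates 1 and 2 but -3.22, -2.92 and -2.78 in replicates 3 to 5. Control arrays were lowest, at -4.29 to -3.85, and the log2 difference of 1.01 (95% interval 0.39 to 1.64) did not pass the test (adjusted p = 0.0506). The germ line list around it had 0 of 34 measured genes called.

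Immediate early genes, which respond within minutes to calcium, growth factors or stress, split into a group that was higher and a group that was lower at 1x. Of 45 measured, 8 (17.8%) were higher and 6 (13.3%) lower, against 3.75% and 5.38% of all genes. The median log2 difference was -0.02, and within scan day 2 alone 6 were higher and 4 lower. Npas4a, a transcription factor induced by neuronal activity, had log2 levels of 1.43, 1.64, 1.57, 1.72 and 1.64 at 1x. At 0.5x its levels were 0.42, 0.31, 0.26, 0.69 and 0.22, and in control 0.29, 0.61, 0.35 and 0.33. The 1x arrays thus stood clear of all others, with 0.5x among the controls, and the log2 difference was 1.22 ± 0.10 (2.33-fold, adjusted p = 2.64e-04). Fosab, the fos subunit of AP-1, showed the same order, with log2 levels of 2.25, 3.08, 2.51, 3.24 and 3.28 at 1x, 1.54, 1.54, 1.32, 1.88 and 1.66 at 0.5x, and 1.32 to 1.61 in control. Its log2 difference was 1.28 ± 0.20 (2.44-fold, adjusted p = 0.00489). The zinc-finger factors egr4 and egr1 differed by 0.87 (adjusted p = 9.96e-04) and 0.76 (adjusted p = 0.00139, lost with normexp).

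Among the lower genes, mych, a myc-family factor, had log2 levels of -1.43 to -0.85 at 1x and of -0.31 to 0.14 at 0.5x, while control had the lowest mean, at -2.08 to -1.29, and overlapped 1x. Its log2 difference was -1.07 ± 0.13 (adjusted p = 0.00113), and against control it was 0.51 at 1x and 1.58 at 0.5x. Per1b, a clock gene that is also a glucocorticoid target, had levels of 2.68 to 3.12 at 1x, 3.55 to 4.07 at 0.5x and 2.13 to 2.59 in control, 3 ranges that did not overlap, with a log2 difference of -1.01 ± 0.12 (adjusted p = 0.00130). Dusp5, a phosphatase that switches off ERK, differed by -0.67 (adjusted p = 0.00186), with -0.11 at 1x and 0.56 at 0.5x against control. Of the 8 higher members, the control mean lay below both strengths in 4, between in 3 and above in 1, and of the 6 lower members in 3, 2 and 1. Without 0.5x replicate 1 the lower members numbered 10, and without 0.5x replicate 4 they numbered 3.

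**Figure D4:**
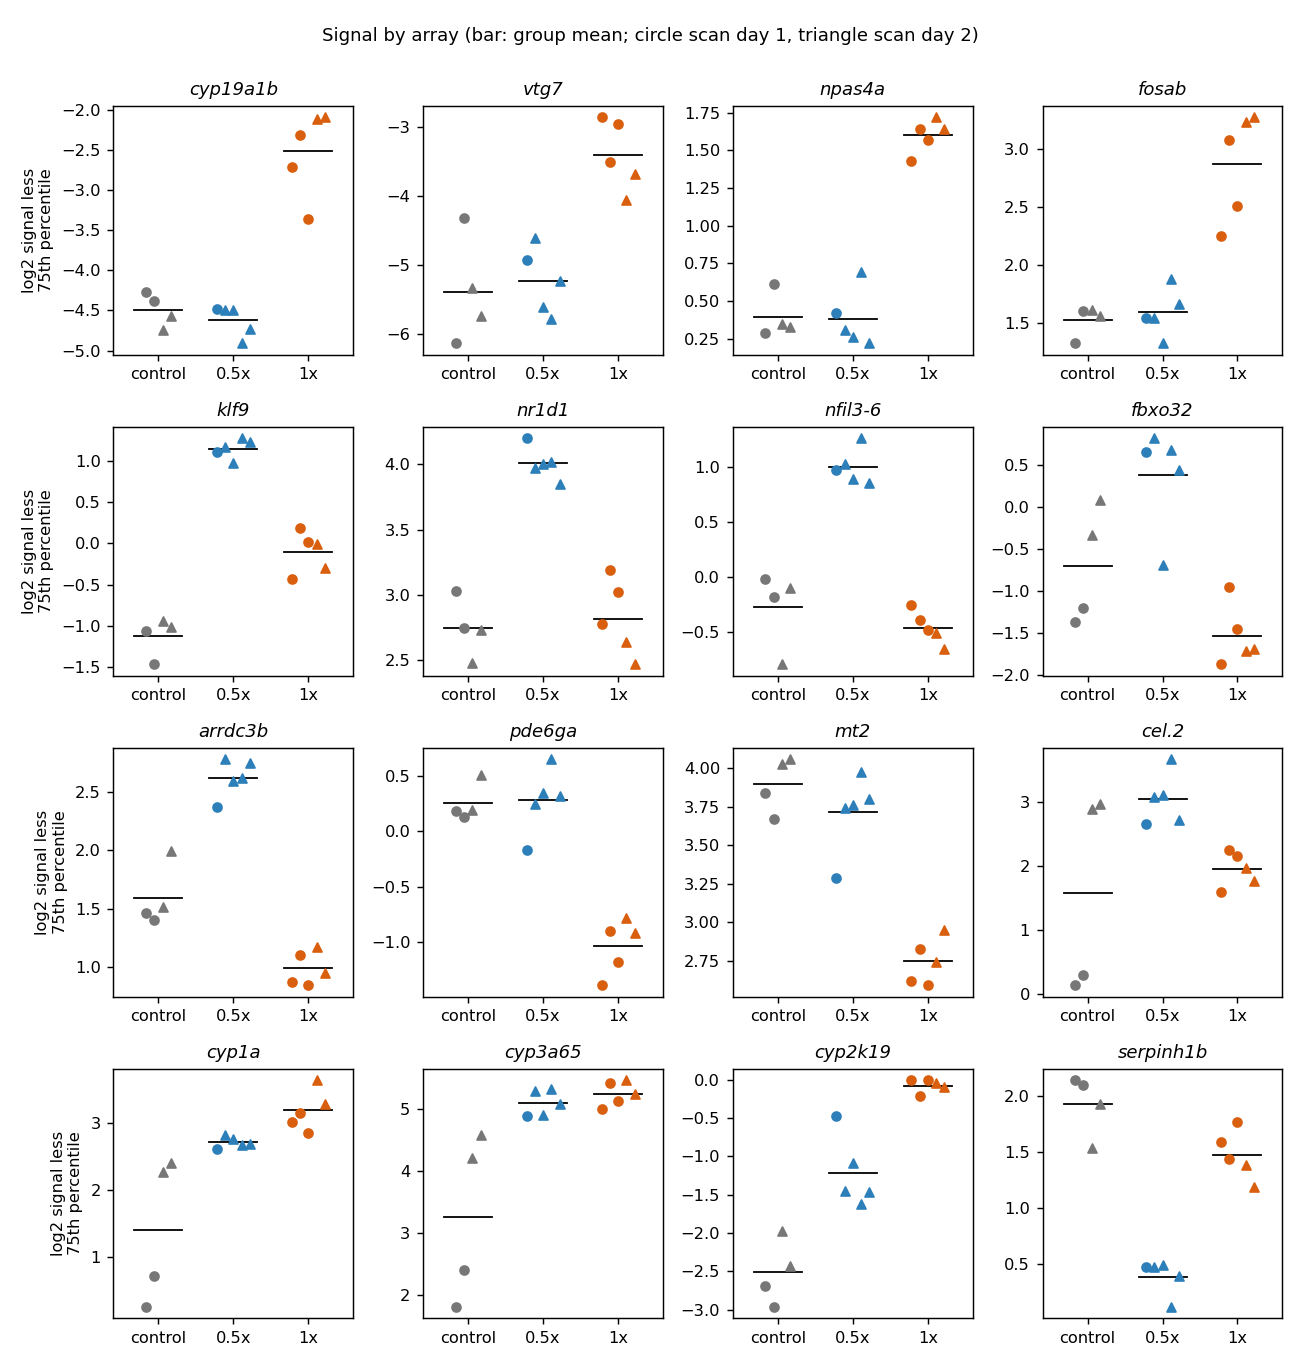
Log2 level less the array's 75th percentile (y axis) on each control (grey), 0.5x (blue) and 1x (orange) array for 16 genes, with circles for scan day 1, triangles for scan day 2 and bars for group means. The 1x arrays of cyp19a1b, npas4a and fosab lie above both other groups, those of pde6ga and mt2 below both, and klf9 is ordered control, 1x, 0.5x.

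Many clock genes separated the strengths, and those lower at 1x held repressors of the loop beside activators. Of 42 measured clock genes, 17 (40.5%) were lower and 3 (7.14%) higher at 1x, against 5.38% and 3.75% of all genes. The median log2 difference was -0.34 against -0.02 over all genes. Without 0.5x replicate 1 the counts were 23 and 3, and within scan day 2 they were 14 and 2. Nr1d1, the REV-ERB repressor of bmal1, had log2 levels of 2.78, 3.19, 3.02, 2.64 and 2.47 at 1x and of 4.2, 3.97, 4.00, 4.02 and 3.85 at 0.5x. Control levels were 3.03, 2.75, 2.48 and 2.73, inside the 1x range, and the log2 difference was -1.19 ± 0.13 (0.5x higher by 2.28-fold, adjusted p = 9.46e-04). Nfil3-6, a repressor at D-box elements, had levels of -0.65 to -0.25 at 1x, 0.85 to 1.26 at 0.5x and -0.79 to -0.02 in control. Its log2 difference was -1.46 ± 0.10 (0.5x higher by 2.74-fold, adjusted p = 9.94e-05), with -0.18 at 1x and 1.27 at 0.5x against control. In both repressors the 0.5x arrays stood apart, and the 1x arrays overlapped the controls.

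The repressors bhlhe40 and bhlhe41 were lower at 1x as well, by -0.86 ± 0.09 (adjusted p = 5.04e-04) and -1.16 ± 0.10 (adjusted p = 2.27e-04). Bhlhe41 levels were -1.0 to -0.92 at 1x, -0.09 to 0.40 at 0.5x and -0.74 to 0.04 in control, so that control overlapped 0.5x and lay above 1x. Both bmal1 genes, activators of the loop, were higher at 1x: bmal1b differed by 0.67 ± 0.13 (adjusted p = 0.0124) and bmal1a by 0.45 ± 0.09 (adjusted p = 0.0139). Bmal1b levels were -1.43 to -0.85 at 1x and -1.99 to -1.55 at 0.5x; control replicates 1 and 2, at -1.42 and -1.46, lay among or next to the 1x arrays, and replicates 3 and 4, at -2.21 and -2.11, below the 0.5x arrays. Their partners clocka (-0.06, adjusted p = 0.779) and clockb (0.02, adjusted p = 0.915) and the repressor per2 (0.09, adjusted p = 0.828), which were named after their values were seen, did not pass. The lower genes were not repressors only: the activators dbpa (-0.86), dbpb (-1.06), tefa (-0.52), hlfa (-0.64) and roraa (-0.35) were lower too. These activators were named after their values were seen, and tefa had this sign in 2 of 4 probes and roraa in 1 of 2. Of the 17 lower clock genes the control mean lay between the strengths in 8, below both in 6 and above both in 3.

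Glucocorticoid-axis genes were called in 1 direction. Of 20 measured, 7 (35.0%) were lower at 1x and 0 higher, against 5.38% and 3.75% of all genes. The median log2 difference was -0.39, and in all 7 the control mean lay below both strengths. Klf9, a Krüppel-like factor induced by glucocorticoids, had log2 levels of -0.43, 0.19, 0.02, -0.01 and -0.30 at 1x. At 0.5x its levels were 1.11, 1.17, 0.98, 1.28 and 1.23, and in control -1.06, -1.47, -0.94 and -1.01. The 3 groups did not overlap, with control lowest and 0.5x highest, and the log2 difference was -1.26 ± 0.12 (0.5x higher by 2.4-fold, adjusted p = 4.89e-04). Sgk2b, a kinase of the serum- and glucocorticoid-regulated family, differed by -0.69 ± 0.10 (adjusted p = 0.00259), and per1b, described above, belongs to this list too. The receptor gene nr3c1 differed by 0.03 (adjusted p = 0.887), and was named after its value was seen. Fkbp5, a chaperone of the receptor, differed by -0.79 (95% interval -1.42 to -0.15) and per1a by -0.77 (95% interval -1.27 to -0.28); neither passed the test (adjusted p = 0.106 and 0.0581). Within scan day 2 and with slide as a block 6 genes were lower, and without 0.5x replicate 1 there were 11 lower and 1 higher.

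Of 29 measured genes of gluconeogenesis, fasting and muscle protein breakdown, 12 (41.4%) were lower at 1x and 0 higher, against 5.38% and 3.75% of all genes. Their median log2 difference was -0.27. Fbxo32, the muscle ubiquitin ligase atrogin-1, had log2 levels of -1.87, -0.95, -1.45, -1.71 and -1.69 at 1x and of 0.65, 0.82, -0.69, 0.68 and 0.44 at 0.5x. Control levels were -1.36, -1.20, -0.33 and 0.09, so that control spanned the gap between the strengths, which did not overlap each other. The log2 difference was -1.92 ± 0.28 (0.5x higher by 3.78-fold, adjusted p = 0.00313). The second muscle ligase, trim63a (MuRF1), differed by -1.0 ± 0.13 (adjusted p = 0.00205), from 1.72 to 2.38 at 0.5x to 0.90 to 1.24 at 1x, where control also lay at 0.86 to 1.23. Glucose-6-phosphatase g6pc1a.2, the last step of glucose output, had levels of 3.43 to 3.84 at 1x, 4.38 to 5.01 at 0.5x and 1.92 to 3.87 in control. It differed by -1.19 ± 0.13 (0.5x higher by 2.29-fold, adjusted p = 7.69e-04).

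The other gate enzyme of gluconeogenesis, pck1, differed by 0.03 (95% interval -0.53 to 0.59, adjusted p = 0.951), and its 2 probes had opposite signs. Igfbp1a, which binds insulin-like growth factor in fasting and low oxygen, differed by -0.73 (adjusted p = 0.00793) and sesn1, a stress-responsive inhibitor of mTORC1, by -0.64 (adjusted p = 0.00413). Of the 12 lower genes, the control mean lay below both strengths in 5, between in 4 and above in 3. Within scan day 2, with slide as a block, and without 1x replicate 3, 0.5x replicate 2 or 0.5x replicate 4, 7 genes were lower in each case. Arrdc3b, an arrestin-domain protein outside these lists, had levels of 0.84 to 1.17 at 1x, 1.4 to 1.99 in control and 2.37 to 2.78 at 0.5x. Its arrays formed 3 separate ranges with control between, at a log2 difference of -1.64 ± 0.10 (0.5x higher by 3.12-fold, adjusted p = 6.30e-05).

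Called genes of sugar and lipid handling lay in both directions. Over all genes 3.75% were higher and 5.38% lower. Pyruvate kinase pklr, the last step of glycolysis in liver, differed by -1.11 ± 0.13 (adjusted p = 9.46e-04) and all its 6 probes had this sign. Among the bifunctional enzymes that set fructose 2,6-bisphosphate, pfkfb4b differed by -0.86 ± 0.09 (adjusted p = 5.04e-04), with levels of 2.51 to 2.79 at 1x, 3.38 to 3.65 at 0.5x and 1.87 to 2.01 in control. Pfkfb2a differed by 1.54 ± 0.25 (2.90-fold, adjusted p = 0.00580), with 1x levels of -3.55 to -3.17 above 0.5x levels of -5.88 to -4.28. Of 46 glycolysis and hypoxia genes 1 (2.17%) was higher and 3 (6.52%) lower (median -0.06), near the shares over all genes. Lipin lpin1a, a phosphatidate phosphatase on the way to triglyceride, differed by -1.47 ± 0.13 (0.5x higher by 2.77-fold, adjusted p = 2.64e-04), with control between the strengths. Of 21 fatty acid synthesis genes 0 were higher and 3 (14.3%) lower (median -0.06). In fatty acid oxidation 4 of 34 genes (11.8%) were higher and 5 (14.7%) lower (median 0.07). There the enzymes acaa2 (0.50, adjusted p = 0.0115) and cpt2 (0.48, adjusted p = 0.0113) rose, while the receptor pparaa (-0.62, adjusted p = 0.00438) and the pyruvate dehydrogenase kinase pdk2b (-0.63, adjusted p = 0.0176, lost with quantile normalization) fell.

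Cholesterol synthesis, with 26 genes measured, had 2 (7.69%) higher and 1 (3.85%) lower (median 0.14), against 3.75% and 5.38% of all genes. Mvda of the mevalonate pathway differed by 0.80 ± 0.16 (adjusted p = 0.0143), with levels of -0.29 to 0.34 at 1x, -1.05 to -0.31 at 0.5x and -1.59 to -0.94 in control, so that the strengths nearly met. Its rate-limiting reductase hmgcra differed by 0.18 (95% interval -0.11 to 0.48) and sqlea by 0.61 (95% interval 0.16 to 1.07, adjusted p = 0.0849), neither past the test. Bile acid genes had 1 of 13 (7.69%) higher and 2 (15.4%) lower (median 0.00). The lower ones held the gut hormone fgf19, which represses bile acid synthesis, at -1.10 ± 0.20 (adjusted p = 0.0104). Fgf19 levels were -3.39 to -2.46 at 1x, -2.37 to -1.57 at 0.5x and -4.33 to -3.20 in control. Cyp7a1, the rate-limiting enzyme of bile acid synthesis, differed by -0.16 and did not pass the test.

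Digestive genes were lower at 1x without exception among those called. In the exocrine pancreas list 16 of 30 genes (53.3%) were lower and 0 higher (median log2 difference -0.58). In the enterocyte list 9 of 39 (23.1%) were lower and 0 higher (median -0.20). Over all genes 5.38% were lower and 3.75% higher. Cel.2, a lipase of pancreatic juice, had log2 levels of 1.59, 2.25, 2.16, 1.97 and 1.76 at 1x and of 2.65, 3.07, 3.11, 3.66 and 2.71 at 0.5x. Its control levels were 0.14 and 0.31 in replicates 1 and 2 but 2.88 and 2.96 in replicates 3 and 4, so 1 pair lay below all effluent arrays and the other among the 0.5x arrays. The log2 difference was -1.09 ± 0.19 (0.5x higher by 2.13-fold, adjusted p = 0.00871). Carboxypeptidase cpb1 differed by -0.90 ± 0.16 (adjusted p = 0.00762) and bhlha15 (Mist1), a transcription factor of acinar cells, by -0.76 ± 0.11 (adjusted p = 0.00397).

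Cpb1 had levels of 2.32 to 2.97 at 1x and 3.29 to 3.88 at 0.5x, with control replicates at 0.49 and 1.39 on scan day 1 and at 3.63 and 4.26 on scan day 2. Over all 4 controls the control mean lay below both strengths in 15 of the 16 pancreas genes and between in 1; with control replicates 3 and 4 it lay above both in 14 and between in 2. In the gut, fabp2, a fatty acid carrier of enterocytes, differed by -0.51 ± 0.08 (adjusted p = 0.00577) and the intestinal transcription factor cdx1b by -0.53 (adjusted p = 0.00303). For the 9 enterocyte genes control lay below in 7 and between in 2, and with control replicates 3 and 4 above in 4 and between in 5. Within scan day 2, 15 pancreas and 3 enterocyte genes were lower. With slide as a block these counts were 1 and 3, with quantile normalization 6 pancreas genes were lower, and in the fit of all 14 arrays both were 0. Higher genes appeared too: 1 enterocyte gene with slide as a block and 1 pancreas gene with normexp. Over the leave-outs, up to 3 enterocyte genes and up to 1 pancreas gene were higher. Leaving out 1x replicate 1 or 4 or 0.5x replicate 4 left 8 pancreas genes, leaving out 0.5x replicate 2 or 3 left 9, and leaving out 1x replicate 1 or 4 or 0.5x replicate 3 or 4 left 5 enterocyte genes.

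Of 59 vision genes 13 (22.0%) were lower and 4 (6.78%) higher at 1x, against 5.38% and 3.75% of all genes. The median log2 difference was -0.11, but with quantile normalization 12 were lower and 10 higher, so no direction is given for the list. Pde6ga, the inhibitory subunit of the rod phosphodiesterase, had log2 levels of -1.39, -0.90, -1.18, -0.78 and -0.92 at 1x and of -0.17, 0.25, 0.35, 0.65 and 0.32 at 0.5x. Control levels were 0.18, 0.13, 0.19 and 0.51, among the 0.5x arrays, and the log2 difference was -1.31 ± 0.16 (0.5x higher by 2.49-fold, adjusted p = 0.00120). Its cone counterpart pde6ha differed by -0.84 (adjusted p = 0.001) and cone arrestin arr3b, which ends the light response, by -0.73 ± 0.10 (adjusted p = 0.00215). For arr3b 1x levels were 1.98 to 2.3, below 2.70 to 2.97 at 0.5x and 2.45 to 3.11 in control. The red opsin opn1lw2 was higher by 0.57 (adjusted p = 0.0121). The green opsin opn1mw4 differed by 0.62 and did not pass (adjusted p = 0.291). Of the 13 lower genes the control mean lay between the strengths in 9, above in 3 and below in 1. Within scan day 2 there were 8 lower and 0 higher, and with slide as a block 6 and 2; without 1x replicates 1, 2 or 3 or 0.5x replicates 2, 3, 4 or 5 the higher genes numbered 1, without 1x replicate 4 they numbered 2, and without 0.5x replicate 1 there were 7 higher and 19 lower.

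Of 50 lens crystallins 6 were lower and 0 higher (median -0.29), led by cryba1a (-0.88, adjusted p = 3.20e-04); without 0.5x replicate 1 the count was 29 and without 0.5x replicate 4 it was 1, the extremes over the 10 leave-outs. Of 38 keratin and epidermis genes 10 (26.3%) were lower and 2 (5.26%) higher (median -0.16). With quantile normalization 8 of them were lower and 3 higher, and their median was -0.04. Krt15 differed by -0.75 ± 0.11 (adjusted p = 0.00378), from 6.22 to 6.84 at 0.5x to 5.76 to 5.95 at 1x, with control at 6.18 to 7.08, and krt96 differed by -0.63 (adjusted p = 0.00115). The annexin anxa1c had the largest change of that list, -1.46 (adjusted p = 0.00828). Leaving out 1x replicate 3 or any of 0.5x replicates 2 to 5 left 6 lower skin genes, within scan day 2 and in the fit of all 14 arrays there were 4, and with slide as a block 2. Among 77 neuronal genes 3 (3.90%) were lower and 0 higher (median -0.16), neither above the share over all genes. These counts became 23 lower and 2 higher without 0.5x replicate 1.

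**Figure D5:**
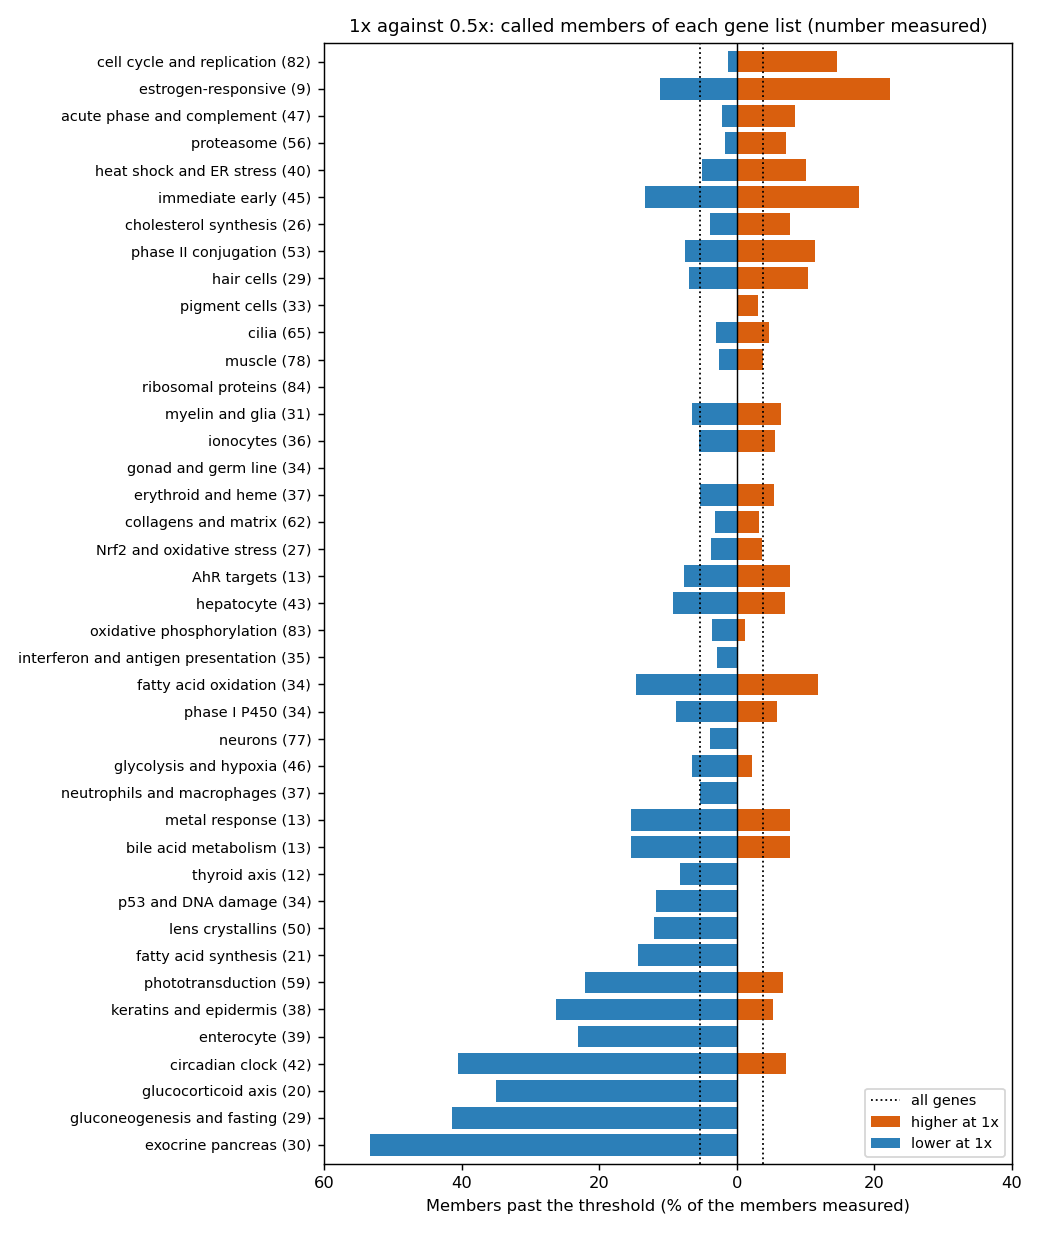
Percent of the measured members of each gene list that were higher (orange) or lower (blue) at 1x, with dotted lines at the shares over all genes, 3.75% and 5.38%. Pancreas, gluconeogenesis and fasting, clock and glucocorticoid genes have the longest bars to the lower side. On the higher side the longest are estrogen-responsive genes (22.2%, 2 of 9), immediate early genes (17.8%) and the cell cycle (14.6%), and several other lists also pass the line. Immediate early genes pass the line on the lower side too (13.3%).

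Cell cycle and replication genes had more calls upwards than downwards, with a median log2 difference of 0.20. Of 82 measured, 12 (14.6%) were higher and 1 (1.22%) lower, against 3.75% and 5.38% of all genes. Plk1, a mitotic kinase, had levels of 0.37 to 0.57 at 1x and -0.13 to 0.27 at 0.5x, with a log2 difference of 0.44 ± 0.10 (adjusted p = 0.0212). Cyclin ccna2 differed by 0.40 ± 0.09 (adjusted p = 0.0216). In both genes control replicates 1 and 2 lay among the 1x arrays and replicates 3 and 4 within the 0.5x range or below it, ccna2 control levels being 0.71, 0.60, 0.00 and 0.27. The exception was gins4, a subunit of the replicative helicase, at -1.10 ± 0.20 (adjusted p = 0.00947). The 12 calls depended on single arrays: 23 were higher without 0.5x replicate 1, 6 without 0.5x replicate 5, 4 without 1x replicate 2, 3 without 1x replicate 1, 1 without 0.5x replicate 4 and 0 without 1x replicate 3 or 0.5x replicate 2. Within scan day 2 none was higher and 1 lower, with slide as a block 3 were higher, and with array median scaling 4.

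Lists of responses to foreign compounds held calls in both directions, as did all genes, with 3.75% higher and 5.38% lower. Of 13 aryl hydrocarbon receptor genes 1 (7.69%) was higher and 1 (7.69%) lower (median 0.26). Cyp1a had log2 levels of 3.02, 3.15, 2.86, 3.64 and 3.29 at 1x and of 2.61, 2.83, 2.77, 2.68 and 2.69 at 0.5x, with control at 0.26, 0.71, 2.27 and 2.4. Every 1x array was above every 0.5x array and all effluent arrays were above control, and the log2 difference of 0.47 (95% interval 0.18 to 0.77) missed the threshold at an adjusted p of 0.0503. The receptor's other targets ahrra (0.34, 95% interval -0.11 to 0.79), cyp1b1 (0.26) and cyp1c1 (0.28) did not pass. Cyp3a65, a major drug-metabolising monooxygenase of the larval gut and liver, had levels of 5.01 to 5.47 at 1x and 4.89 to 5.33 at 0.5x against 1.81 to 4.59 in control. It differed between the strengths by 0.15 (95% interval -0.12 to 0.42, adjusted p = 0.435), so a log2 difference above 0.42 lies outside the interval.

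Among other cytochromes P450 of phase I, 2 of 34 (5.88%) were higher and 3 (8.82%) lower (median 0.03), against 3.75% and 5.38% of all genes. Cyp2k19 had levels of -0.01, -0.22, -0.01, -0.05 and -0.10 at 1x, -0.48, -1.45, -1.09, -1.62 and -1.46 at 0.5x and -2.69, -2.96, -1.98 and -2.43 in control. The groups formed 3 separate ranges in the order of effluent strength, with a log2 difference of 1.14 ± 0.19 (2.2-fold, adjusted p = 0.00593), and 4 of its 5 probes had this sign. The call was lost with slide as a block (adjusted p = 0.0899), and the differences were 0.40 within scan day 1 and 1.33 within scan day 2. In conjugation (phase II), 6 of 53 genes (11.3%) were higher and 4 (7.55%) lower (median 0.10). The sulfotransferase sult1st1 rose by 0.96 ± 0.14 (adjusted p = 0.00381) while sult1st4 fell by 0.66 (adjusted p = 0.00582). Sult1st1 levels were 1.1 to 1.49 at 1x, 0.07 to 0.88 at 0.5x and -0.28 to 0.47 in control. The largest rise of a sulfotransferase was that of sult5a1, 1.96 ± 0.30 (3.89-fold, adjusted p = 0.00469), where control, at 0.14 to 1.33, lay between 0.5x at -1.26 to 0.10 and 1x at 0.73 to 2.11, overlapping the latter. Oxidative stress genes under Nrf2 had 1 of 27 higher and 1 lower (3.70% each, median 0.00), neither above the share over all genes. The heme oxygenase hmox1a differed by -0.17 and did not pass.

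Stress proteins and metal handling held a few larger changes. Metallothionein mt2, which binds zinc, copper and cadmium, had log2 levels of 2.62, 2.83, 2.59, 2.74 and 2.95 at 1x and of 3.29, 3.74, 3.76, 3.98 and 3.80 at 0.5x. Control levels were 3.84, 3.67, 4.03 and 4.06, so only the 1x arrays stood apart, below both others, and the log2 difference was -0.97 ± 0.13 (0.5x higher by 1.95-fold, adjusted p = 0.00212). Against control mt2 differed by -1.15 at 1x (adjusted p = 3.09e-04) and by -0.19 at 0.5x (adjusted p = 0.367). The metal list as a whole had 1 of 13 genes (7.69%) higher and 2 (15.4%) lower (median -0.06), against 3.75% and 5.38% of all genes. Serpinh1b (Hsp47), a chaperone of collagen, had levels of 1.59, 1.44, 1.77, 1.38 and 1.19 at 1x, 0.47, 0.47, 0.49, 0.12 and 0.39 at 0.5x and 2.14, 2.1, 1.54 and 1.93 in control.

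In serpinh1b 0.5x was thus the group set apart, with a log2 difference of 1.09 ± 0.12 (2.12-fold, adjusted p = 8.08e-04). Against control it differed by -0.45 at 1x and by -1.54 at 0.5x. The calreticulin gene calr3b of the endoplasmic reticulum rose by 0.81 ± 0.13 (adjusted p = 0.00506), with control at 1.97 to 2.74 across the range of both strengths. Of 40 heat shock and ER stress genes 4 were higher and 2 lower (median 0.17), and the inducible hsp70l differed by 0.37 without passing (adjusted p = 0.111). Collagens and matrix had 2 of 62 higher and 2 lower (3.23% each, median 0.03), below both shares over all genes. Heme genes had 2 of 37 in each direction (5.41%, median 0.08), near the share over all genes on the lower side. Slc25a37 (mitoferrin), which brings iron into mitochondria, differed by -0.94 ± 0.10 (adjusted p = 5.84e-04), a sign shared by 4 of 5 probes. Its control levels were highest at -2.02 to -1.38, with 0.5x at -2.55 to -2.31 and 1x lowest at -3.55 to -3.14. Gata1a, the erythroid transcription factor, differed by 0.52 (adjusted p = 0.0147).

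In immunity, the acute phase and complement list had 4 of 47 genes (8.51%) higher and 1 (2.13%) lower (median 0.11), against 3.75% and 5.38% of all genes. The cytokine gene tnfb differed by 1.17 ± 0.27 (adjusted p = 0.0237), with 1x at -2.29 to -1.09 and control at -2.04 to -1.47 above 0.5x at -3.54 to -2.35; the call was lost without 1x replicates 2, 3 or 4 or 0.5x replicates 3, 4 or 5. Complement factor cfh rose by 0.57 (adjusted p = 0.0162), and the NF-kB subunit rela fell by 0.88 (adjusted p = 0.0159, lost with normexp). Of 37 neutrophil and macrophage genes 0 were higher and 2 (5.41%) lower (median 0.06). Of 35 interferon and antigen presentation genes 0 were higher and 1 (2.86%) lower (median -0.04). Hepatocyte genes had 3 of 43 (6.98%) higher and 4 (9.30%) lower (median 0.00), of which the fetuin ahsg1 differed most, by -1.26 ± 0.22 (adjusted p = 0.00855). Ahsg1 levels in control ran from -3.64 to 1.73, wider than the whole effluent range of -1.37 to 1.11.

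Several lists held few calls in number, but not all had smaller shares than all genes (3.75% higher and 5.38% lower). Hair cells, ionocytes, and myelin and glia were above these shares in both directions. Cilia, the proteasome and, narrowly, muscle were above on the higher side only. The p53 and thyroid lists were above on the lower side only, and with so few genes called these shares are a description. Ribosomal proteins had 0 of 84 called (median -0.25), but 59 were lower without 0.5x replicate 1, and their median was 0.02 within scan day 1, -0.23 within scan day 2 and -0.04 after quantile normalization, so no direction is given. Muscle had 3 of 78 higher and 2 lower (median -0.09), cilia 3 of 65 and 2 (median -0.02), hair cells 3 of 29 and 2 (median -0.03), ionocytes 2 of 36 and 2 (median -0.01) and myelin and glia 2 of 31 and 2 (median -0.03). Oxidative phosphorylation had 1 of 83 higher and 3 lower (median -0.11), p53 and DNA damage 0 of 34 and 4 (median -0.04), the proteasome 4 of 56 and 1 (median 0.06), pigment cells 1 of 33 and 0 (median -0.05), and the thyroid axis 0 of 12 and 1 (median -0.01). Most of these counts moved by over 1.5 times when 1 array was left out: without 0.5x replicate 1 they were 7 and 12 for muscle, 5 and 9 for cilia, 8 and 1 for the proteasome and 1 and 13 for oxidative phosphorylation. Among the short lists above, the same leave-out gave 10 higher heat shock and ER stress genes, 8 higher and 5 lower matrix genes, 5 and 7 heme genes, 7 and 3 acute phase genes, 5 and 3 cholesterol genes and 7 lower conjugation genes. The median of oxidative phosphorylation was 0.12 within scan day 1, 0.07 with slide as a block and 0.01 with quantile normalization. With quantile normalization 4 of its genes were higher and 3 lower. The muscle median was 0.05 with quantile normalization, so no direction is given for either list. The deiodinase dio2, which makes active thyroid hormone, differed by -0.11 (95% interval -0.37 to 0.14).

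Some of the largest changes were in genes that carry only a clone name. Among called genes detected at both strengths whose arrays did not overlap, the largest fall was that of si:ch211-240l19.7, by 2.65 ± 0.26 (0.5x higher by 6.28-fold, adjusted p = 5.04e-04), with levels of -4.63 to -3.05 at 1x and -1.47 to -0.76 at 0.5x. Its control levels spread from -5.06 to -1.11, covering the 1x range and overlapping that of 0.5x. The second largest of these was that of si:dkey-104n9.1, which fell by 2.42 ± 0.17 (0.5x higher by 5.36-fold, adjusted p = 9.94e-05), with 1x at -4.71 to -3.86, control at -3.15 to -2.66 and 0.5x at -1.94 to -1.74, 3 ranges apart with control between. The gene prrg1, which encodes a membrane protein with a Gla domain, fell by 1.67 ± 0.26 (0.5x higher by 3.17-fold, adjusted p = 0.00526). Prrg1 levels in control, -0.39 to 0.20, lay among and above those at 0.5x.

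Among the same genes, large rises beside cyp19a1b and vtg7 were those of pth1a, a parathyroid hormone, at 1.45 ± 0.18 (2.74-fold, adjusted p = 0.00141) and of zgc:101562 at 1.46 ± 0.12 (2.75-fold, adjusted p = 2.27e-04, lost with normexp). Pth1a levels were -3.22 to -2.24 at 1x and -4.50 to -3.86 at 0.5x, with control across the gap at -4.40 to -3.01. In zgc:101562 control, at -5.07 to -4.46, lay between 1x at -4.33 to -4.03 and 0.5x at -5.85 to -5.20 with no overlap. It was 1 of only 6 called genes whose 4 control arrays all lay between non-overlapping strengths. The others were aplnra (0.73) and trmt2b (0.44) upwards and bach1b (-0.89), arrdc3b (-1.64) and si:dkey-104n9.1 (-2.42) downwards; aplnra, trmt2b and bach1b were named after their values were seen.

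A few genes were detected at 1 strength only. Called genes well above background on at least 4 of 5 arrays of 1 strength and at most 1 of the other were ranked by the bound on the fold. At most 10 were taken, so the split between strengths may not cover all such genes. Of the 10 taken, 9 were detected at 1x, with bounds from 1.24-fold to 2.34-fold higher, and 7 of these 9 turned sign with normexp. Such genes passed the filter only through the strength where they were bright. The share of probes well above background was also larger at 1x (89.0% to 90.9%) than at 0.5x (86.7% to 89.4%). The split between strengths is therefore a description. The bounds rest on the lowest signal well above background of each array, and no other floor was tried. Among the genes detected at 1x, oxgr1a.1 had the largest bound, 2.34-fold. It lost its call without 1x replicates 2 or 3 or 0.5x replicates 2 to 5. The taste receptor tas2r201.1 was detected at 0.5x, with a bound of 1.80-fold higher there. Jac10 differed by -0.89 (adjusted p = 0.0221), a call lost without 1x replicate 4 or 0.5x replicate 3 (adjusted p up to 0.0567), and ggact.2 by 2.36 (95% interval 0.40 to 4.32, adjusted p = 0.116).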

How the data were processed

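RNA of whole zebrafish larvae was measured on 14 1-colour arrays. The authors deposited scanner output of Agilent Feature Extraction 10.7, as named in the submitters' processing notes. The processed signal in these files is an intensity on a linear scale, with background subtracted and spatial trends removed, per the file headers. A matrix of log2 values was deposited too; neither labels nor headers say how it was made. On slides 2, 3 and 4 it equals log2 signal less the array's 75th percentile, centred on each slide's median per probe (lowest correlation 1.00), which removes slide means. Its centring on slide 1 stays unknown, its column medians ran from -0.0662 to 0.110, and it was used as an alternative only.

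Of 43603 probes (43803 spots, 73 spots marked as outliers left out over all arrays, 0 saturated), 38764 were kept as well above background on at least 4 of 5 arrays of either strength. The accessions of 24650 matched the gene table, 24599 had a symbol, and a gene (12780) was represented by its brightest probe. The values tested were log2 intensities less the 75th percentile, with limma 3.58.1 in R 4.3.3 (lmFit and eBayes, 10 arrays, no block, Benjamini-Hochberg); differences from control came from a fit of all 14 arrays. The median standard error was 0.128, and the number of arrays limits the precision. On simulated data of this comparison, over 38750 features, 29 of 100 changes of 1.5-fold and 63 of 100 of 2-fold were recovered with 6 false calls. The simulated noise was independent between arrays and held no slide or scan-day effect, so these counts do not cover false calls from such effects. Bounds for genes detected at 1 strength set the bright group's mean against the higher of the dim probe's signal and the lowest signal well above background.

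Named were up to 15 genes of the largest rise and fall among called genes with non-overlapping arrays, up to 3 called members in each direction of 41 lists by adjusted p, up to 10 genes detected at 1 strength, and a fixed set. All were chosen with earlier results of these data known. Alternatives were normexp on median signals (mean signals were planned), quantile and median scaling, the matrix, all 14 arrays, other filters, slide, scan day and replicate blocks, and leaving out each array. The text gives only some of the genes that this rule names.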

Additional observations from a re-analysis of the deposited data

Results flagged for a closer look

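In 28 of the 585 groups of arrays tested over the named genes, the highest or lowest array lay far from the others of its group, by Dixon's ratio at the 95% level. Chance alone gives such a gap in about 1 in 20 groups. Of these, 9 fell on 0.5x replicate 1, the array that also stood apart in the principal components, and no explanation was tested. Its log2 levels were the highest of the 0.5x arrays for ahsg1 (1.11), gbp4 (-6.22), pck1 (2.90), ppt2a.4 (-1.67) and serpina7 (1.07). They were the lowest for arr3b (2.70), esr1 (-4.17), g6pc1a.2 (4.38) and prdx2 (6.18). Among the other 0.5x arrays, replicate 3 was low for fbxo32 (-0.69), replicate 4 was high for slc30a10 (1.84) and low for serpinh1b (0.12) and zgc:153219 (-2.15), and replicate 5 was high for zgc:101562 (-5.20).

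At 1x, replicate 1 was low for gins4 (-0.60) and ptgs2b (0.27), and replicate 2 was high for marchf4b (-5.58), opn1mw4 (-2.86) and si:ch211-229n2.6 (-5.30). Replicate 4 was low for slc25a38a (-2.10), and replicate 5 was high for gria1b (-2.24) and low for fkbp5 (-0.49) and pde6a (-0.23). In control larvae, replicate 1 was high for nfe2l1a (-3.11) and or42a4 (-3.55) and low for fosab (1.32), replicate 2 was high for plekhs1.1 (-2.57) and replicate 4 was high for pde6ga (0.51).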

How the results depend on the processing

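The 3249 calls became 1584 with all 14 arrays in the fit, 887 with slide as a fixed block, 1266 within scan day 2, 437 within slide 3, and 1343 to 10082 when 1 array was left out. The count was 0 with the series matrix, within scan day 1 or within slide 2, where limma gave 5424, 3581 and 3961 probes at an unadjusted p under 0.05; these splits have few arrays, and the matrix holds slide-centred values. With slide as a random block (correlation within a slide 0.443) 3172 passed. Whether replicate numbers pair the samples is not known. Correlations of deviations between arrays of the same number were 0.176, -0.223, -0.137, 0.184 and 0.495. The own number was the best match for 1x replicates 1, 4 and 5 only, and with the replicate block 4277 probes passed. With control replicates 3 and 4 only, control lay below in 238 and above in 40 genes higher at 1x and below in 69 genes lower at 1x; normexp put control above in 117 higher genes. Of 176 named genes called, 163 kept their sign under all settings with a value, and 101 stayed past the threshold in all 10 leave-one-outs, the others reaching adjusted p values of up to 0.124. Signs turned with normexp for atoh1b (-0.03), gbp4 (-0.07), ggact.3 (-0.03, also -0.03 within slide 3), lrrc14b (-0.09), marchf4b (-0.08), pard6ga (-0.05), si:ch211-229n2.6 (-0.17) and taar12b (-0.07). They turned with the matrix for atoh1b (-0.03), cyp2x9 (0.17), sult3st3 (0.02) and tnni2a.1 (0.31), and within scan day 1 for cyp2x10.2 (-0.05) and serpina7 (-0.04). The cause was not tested. Dim probes depend on the background correction, and small differences are limited by the number of arrays.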

Other observations

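Other tissues held single genes that separated the strengths, and limma called each of those given here. In macrophages and related cells, grna.1, a granulin precursor, had log2 levels of -1.1 to -0.68 at 1x, -0.31 to 0.44 at 0.5x and 0.36 to 1.38 in control, an order opposite to that of effluent strength, with a log2 difference of -0.96 ± 0.15 (adjusted p = 0.00579). The antigen presentation chaperone cd74a differed by -0.68 ± 0.14 (adjusted p = 0.0141). In mitochondria, the muscle form of a cytochrome oxidase subunit, cox6a2, differed by -0.88 ± 0.15 (adjusted p = 0.00654), with control replicates at 1.23 and 1.39 on scan day 1 and 2.21 and 2.61 on scan day 2. The cytochrome oxidase subunit cox4i2 had levels of 1.22 to 1.46 at 1x, below 1.71 to 2.01 at 0.5x and 1.75 to 2.17 in control (adjusted p = 0.0108).

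In brain glia, slc1a2a, a glutamate transporter, differed by -0.68 ± 0.10 (adjusted p = 0.00361), while the Notch target her6 differed by 0.45 ± 0.09 (adjusted p = 0.0124). Her6 levels at 0.5x, 1.01 to 1.22, lay below 1.44 to 1.76 at 1x and 1.55 to 1.98 in control. Bbc3 (Puma), a promoter of apoptosis, differed by -0.67 ± 0.11 (adjusted p = 0.00661). The chemokine gene ccl20b differed by 1.18 ± 0.24 (adjusted p = 0.0160), with control at -3.99 to -3.35 inside the 0.5x range of -4.35 to -3.41 or just above it. With slide as a block, grna.1, cd74a, cox6a2, cox4i2, her6 and ccl20b lost the call (adjusted p of 0.0702 to 0.0902).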
